A study of Mus musculus with 18 samples.

Results

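The genes described here encode the coats, tethers and sorting complexes that carry membrane proteins and enzymes between the Golgi, the plasma membrane, endosomes and lysosomes. They were chosen by symbol: every gene of the deposited count table whose symbol begins with Vps, or is Ap1 to Ap5 followed by a subunit letter (a, b, d, e, g, m, s or z), together with Gga1, Gga2, Gga3, Clta, Cltb, Cltc, M6pr, Igf2r and Sort1. The rule took 67 of the 11243 genes in the table. By its letters it also took Ap1ar, a regulator of AP-1 that is no subunit, and Vps72, a chromatin protein. For the comparison that the choice was made for, 27 adaptor complex subunits were set beside 7 HOPS and CORVET, 4 retromer and 7 ESCRT genes, which left 22 other members. Another 6 genes listed for these complexes are not analysed here.

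Lysosomal enzymes that carry mannose 6-phosphate are bound in the Golgi by the receptors M6pr and Igf2r, and sortilin (Sort1) carries other cargo along a similar route. The GGA proteins and the adaptor complex AP-1 recruit clathrin to these receptors, AP-2 does so at the plasma membrane, AP-3 sorts membrane proteins to lysosomes and lysosome-related organelles, and AP-4 and AP-5 work without clathrin. Retromer and GARP return receptors to the Golgi, ESCRT complexes move ubiquitinated receptors into the vesicles of multivesicular bodies, and CORVET and HOPS tether endosomes and lysosomes before they fuse; macrophages use all of these routes to degrade what they take up.

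RAW264.7, a line of mouse macrophages, was the only cell type studied. Control cells received the DMSO vehicle, LPS cells received 500 ng/mL lipopolysaccharide (LPS) of Salmonella for 6 h, and a further group received the same LPS after 15 min with 100 nM torin1, an inhibitor of the kinase mTOR. Each treatment was made in 3 independent experiments, and the 9 lysates were sequenced as total mRNA and as the mRNA of pooled heavy polysomes, hence 18 libraries. Library totals were between 27800983 and 47725557 counts on genes of the table, of which the 67 members took between 0.671% and 0.875%. Levels are given as CPM, the count of a gene scaled to its library's total after TMM normalization, in the order of experiments 1, 2 and 3. These are levels relative to the other mRNAs of a library, and they show neither the number of cells nor the amount of RNA in each cell.

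The labelled cell line was checked against marker genes. All 9 macrophage markers were in the table, led by Lyz2 with 7589 ± 534 CPM (SD, n = 3) in total mRNA of control cells, and their summed level was between 11265 and 21610 CPM per library. Of the 16 markers of fibroblasts, T cells, B cells, epithelium and endothelium only Cdh5 was in the table, at 0.0659 to 1.45 CPM. Genes with a count of 0 in any library had been left out of the table, so absence from it does not show that a gene was silent. Il6 and Nos2, also looked up as LPS response genes, were absent too. Tnf, an early product of the LPS response, was at 257 ± 71.1 CPM in control cells, 2389 ± 415 CPM with LPS and 2057 ± 264 CPM with LPS and torin1 (total mRNA, SD, n = 3). In the same order Il1b was at 2.03 ± 1.42, 1926 ± 915 and 545 ± 102 CPM and Ptgs2 at 73.5 ± 30.1, 6136 ± 1035 and 3319.6 ± 127 CPM. Libraries of experiment 2 stood apart in polysome-associated mRNA: between the replicates of LPS with torin1, the chi-squared statistic per degree of freedom over all genes was 210.5 and 252 for the pairs with experiment 2 and 69.9 for the pair without it. In total mRNA of the same treatment these values were 61.3, 49.4 and 38.4. Counts called with LPS or torin1 in polysome-associated mRNA are therefore also given without experiment 2 for all members, the compared classes and AP-3. For other complexes and lists of genes they rest on all experiments.

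Levels were first compared between the genes, per length, as RPKM (CPM divided by the kilobases of all annotated exons of the gene) in total mRNA of control cells. The order was headed by M6pr, at 147 ± 5.83 RPKM (SD, n = 3), and the clathrin heavy chain Cltc, at 128 ± 5.60 RPKM, followed by the light chain Clta, at 79.5 ± 9.24 RPKM. Vps26a, Ap1s1, Igf2r and Vps13c came next, with 47.8 ± 4.48, 47.5 ± 3.31, 46.4 ± 1.68 and 41.7 ± 3.45 RPKM. Near the bottom were Sort1, at 1.77 ± 0.00327 RPKM, the ESCRT-II subunit Vps25, at 0.509 ± 0.147 RPKM, and Ap1m2, at 0.0503 ± 0.0140 RPKM. Ap1m2, the AP-1 medium chain of polarized epithelia, had between 2 and 38 counts per library, so its fold changes rest on few reads. Vps25 had between 16 and 69 counts, and the annotation places Ramp2 over it on the same strand, where reads of overlapping genes may go uncounted.

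Whether LPS moved the mRNAs of the sorting machinery was asked with edgeR's quasi-likelihood test over all 11243 genes, with SE the standard error of a log2 fold change and a gene called at a Benjamini-Hochberg adjusted p of at most 0.25, the threshold of the study's methods. In total mRNA 41 of the 67 members were called (61.2%), against 66.5% of all genes. Of these, 25 were higher and 16 were lower with LPS, where 32.2% and 34.3% of all genes were. In polysome-associated mRNA 23 members were called (34.3%), against 55.1% of all genes, with 14 higher and 9 lower, beside 26.4% and 28.7% of all genes. The members had a median log2 fold change of 0.072 in total and 0.081 in polysome-associated mRNA, and all genes one of −0.018 and −0.031. All 23 members called in polysome-associated mRNA were also called in total mRNA in the same direction, and another 18 were called in total mRNA alone. The matching overlap over all genes is not given here, so this overlap is not read as a trait of the members. The number of calls hung on single experiments, for the members and for all genes. In total mRNA it was 27 without experiment 3 (40.3% beside 55.5% of all genes). In polysome-associated mRNA it was 13 without experiment 1 (19.4% beside 34.7% of all genes) and 41 without experiment 2 (61.2% beside 64.5% of all genes), so the smaller share of members than of all genes was not seen without experiment 2 to the same extent. With the replicate block edgeR called 35 members in polysome-associated mRNA (52.2% beside 62.8% of all genes).

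**Figure D1:**
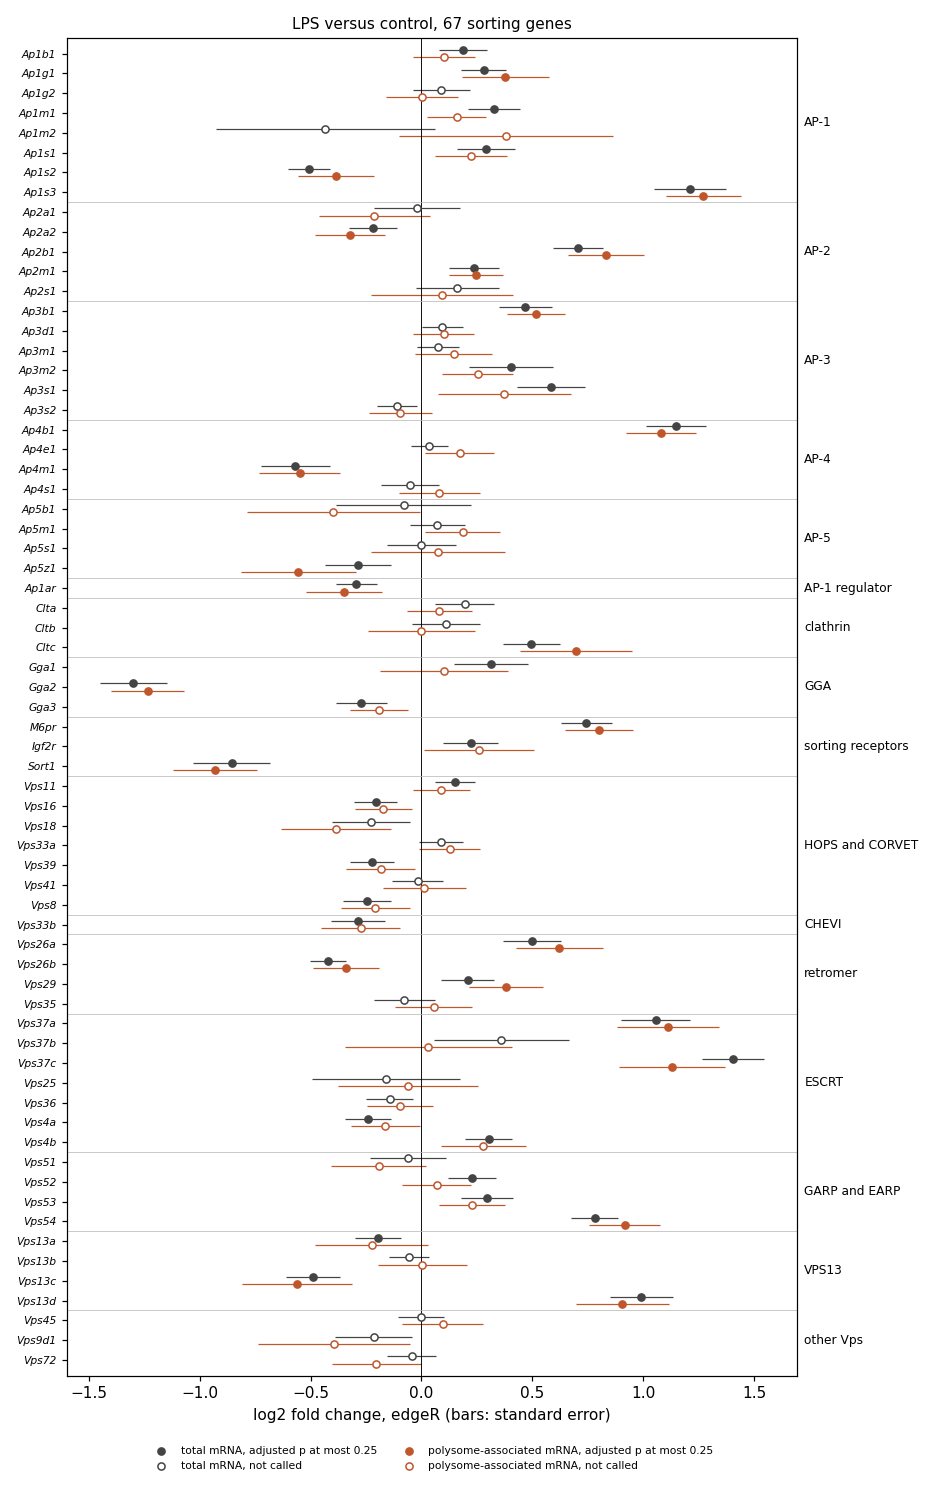
Log2 fold changes between LPS and control cells (horizontal axis) for the 67 members (vertical axis, grouped by complex on the right) in total and polysome-associated mRNA, with bars for the standard error and filled points for an adjusted p of at most 0.25 in edgeR. The ends of the range are Vps37c, Ap1s3, Ap4b1 and Vps37a on the right, each above 1 in both RNA types, and Gga2 on the left, at −1.30 and −1.23.

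The effect of torin1 was asked by comparing LPS with torin1 with LPS alone, which uses the same LPS libraries as LPS versus control; the values of both are therefore set side by side gene by gene, and no overlap between them is counted. In total mRNA 37 members were called (55.2%), against 53.7% of all genes. They divided into 25 higher and 12 lower with torin1, where 27.3% and 26.4% of all genes were. In polysome-associated mRNA 28 members were called (41.8%), against 38.4% of all genes, with 22 higher and 6 lower beside 20.3% and 18.2%. The median log2 fold change of the members was 0.085 in total and 0.13 in polysome-associated mRNA, and that of all genes 0.0012 and −3.5e-04. Both RNA types called 20 members higher and 6 lower, and none was called in opposite directions. This overlap too is given without that of all genes, and is not read as particular to the members. In polysome-associated mRNA the count was 10 without experiment 1 (14.9% beside 15.8% of all genes), 32 without experiment 2 (47.8% beside 46.1% of all genes) and 7 without experiment 3 (10.4% beside 10.6% of all genes), so the members lost and gained calls as all genes did.

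The 4 classes were then compared by their counts and medians. Of all genes 66.5% and 55.1% were called with LPS in total and polysome-associated mRNA, and 53.7% and 38.4% with torin1. With LPS, 15 of the 27 adaptor subunits (55.6%) were called in total mRNA, 11 higher and 4 lower. In polysome-associated mRNA 10 were (37%), 6 higher and 4 lower, where the replicate block gave 9 higher and 4 lower. HOPS and CORVET had 1 higher and 3 lower of 7 in total mRNA and 0 called in polysome-associated mRNA. There 0 of the 7 also passed with DESeq2 and 0 had an unadjusted p under 0.05 in edgeR, beside 6035 and 4790 of all 11243 genes. The replicate block called 2 of the HOPS and CORVET genes lower, Vps8 and Vps18. Retromer had 2 higher and 1 lower of 4 in each RNA type. ESCRT had 3 higher and 1 lower of 7 in total mRNA and 2 higher in polysome-associated mRNA. With torin1, of the HOPS and CORVET genes 5 of 7 were higher and 0 lower in total mRNA, and 4 were higher in polysome-associated mRNA. Retromer had 3 and 2 of 4 higher, in the same order, and 0 lower. The adaptor subunits were divided, with 10 higher and 7 lower in total mRNA and 11 higher and 3 lower in polysome-associated mRNA, where the replicate block gave 11 higher and 6 lower. ESCRT had 1 gene lower, Vps37c, in total mRNA, and 0 of 7 called in polysome-associated mRNA. There DESeq2 called 0 and 0 had an unadjusted p under 0.05 in edgeR, beside 4238 and 3364 of all 11243 genes. With the replicate block edgeR called 1 ESCRT gene higher, Vps4b, and 1 lower, Vps37c, in each RNA type.

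The class counts depended on single experiments, as the calls of all genes did: in polysome-associated mRNA 34.7%, 64.5% and 37.6% of all genes were called with LPS without experiments 1, 2 and 3, and 15.8%, 46.1% and 10.6% with torin1. Without experiment 2, LPS gave 11 higher and 6 lower adaptor subunits in polysome-associated mRNA, 1 higher and 1 lower for HOPS and CORVET, 2 higher and 1 lower for retromer and 3 higher and 1 lower for ESCRT. Without experiment 1 retromer had 0 called there and the adaptor subunits 6, and without experiment 3 they had 1 and 5. In total mRNA LPS gave 8 adaptor subunits and 2 HOPS and CORVET genes without experiment 3 (55.5% of all genes), and for HOPS and CORVET 2 higher and 1 lower without experiment 2 (62.8%). With torin1 and without experiment 2, polysome-associated counts were 10 higher and 6 lower for the adaptor subunits, 4 higher and 0 lower for HOPS and CORVET, 2 higher and 0 lower for retromer and 1 higher and 1 lower for ESCRT. The HOPS and CORVET count of 4 on polysomes fell to 1 without experiment 1 and to 0 without experiment 3. DESeq2 called 3 of the 7 there, beside 4238 of all 11243 genes. Retromer fell to 1 and 0 and the adaptor subunits to 6 and 4 in the same order. In total mRNA the HOPS and CORVET count with torin1 was 4, 4 and 3 without experiments 1, 2 and 3, all higher, and that of retromer was 3, 1 and 1, where 46.1%, 47.9% and 35.2% of all genes were called. For ESCRT in total mRNA it was 1 higher and 0 lower without experiment 1, 0 higher and 1 lower without experiment 2 and 0 called without experiment 3.

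Within each experiment, the median change of a class was taken over its genes. With torin1, the HOPS and CORVET median in total mRNA was 0.29 ± 0.034 on the log2 scale (SD, n = 3 experiments), that of retromer 0.26 ± 0.19, that of the adaptor subunits 0.056 ± 0.042 and that of ESCRT 0.0013 ± 0.11, beside 0.0082 ± 0.0017 over all genes. In polysome-associated mRNA the same medians were 0.21 ± 0.067, 0.24 ± 0.11, 0.12 ± 0.086, −0.026 ± 0.12 and −0.027 ± 0.0089. The medians of HOPS and CORVET, retromer and the adaptor subunits were positive in all 3 experiments in both RNA types. HOPS and CORVET and retromer were above the ESCRT median of the same experiment each time. The adaptor median was below the ESCRT median in experiment 1 of polysome-associated mRNA, at 0.055 beside 0.11. With LPS, the medians in total mRNA were −0.093 ± 0.15 for HOPS and CORVET, 0.057 ± 0.23 for retromer, 0.082 ± 0.030 for the adaptor subunits and 0.15 ± 0.10 for ESCRT. Those of HOPS and CORVET and of retromer were smaller than their SD and changed sign between experiments. Over all genes the median was −0.022 ± 0.0077. In polysome-associated mRNA the class medians were −0.046 ± 0.075, 0.22 ± 0.32, 0.11 ± 0.068 and 0.11 ± 0.14 in the same order. All genes had −0.030 ± 0.0063 there, and the medians of HOPS and CORVET, retromer and ESCRT changed sign between experiments. The genes of a class are not replicates and the members were chosen with results known, so the difference between classes was not tested.

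**Figure D2:**
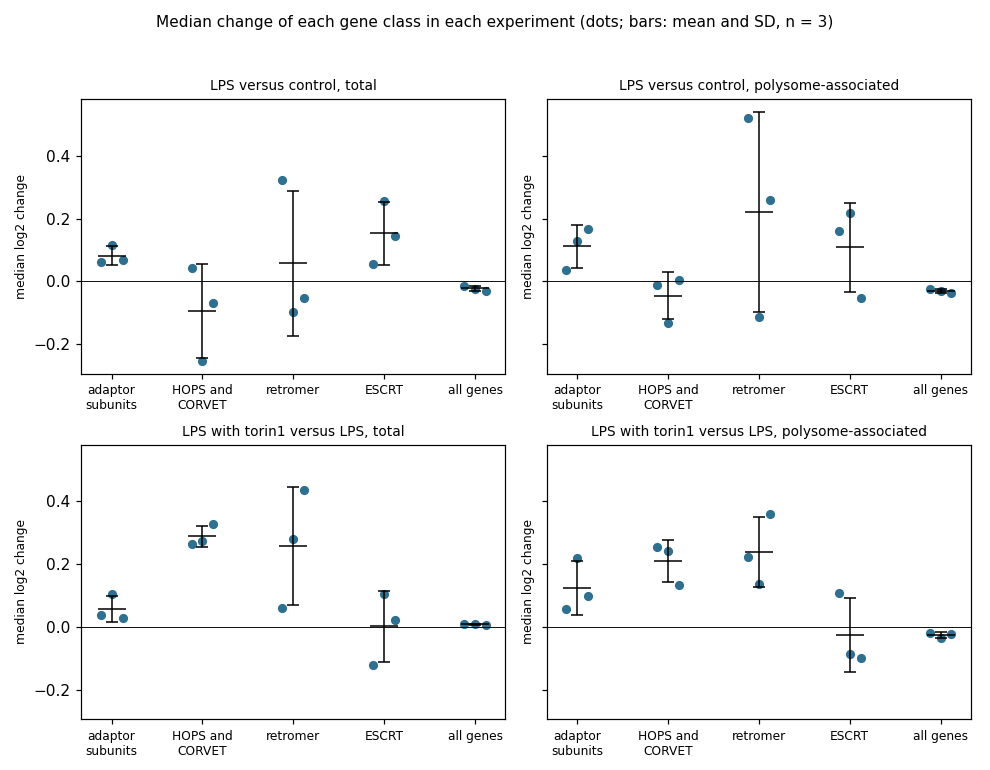
Median log2 change of the adaptor subunits (27 genes), HOPS and CORVET (7), retromer (4), ESCRT (7) and all 11243 genes (horizontal axis) in each of the 3 experiments (dots; bars show the mean and SD), for LPS versus control and for LPS with torin1 versus LPS in each RNA type. With torin1 the dots of HOPS and CORVET, retromer and the adaptor subunits lie above 0 in both RNA types. Their means in total mRNA are 0.29, 0.26 and 0.056, and those in polysome-associated mRNA are 0.21, 0.24 and 0.12.

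Among the sorting receptors, M6pr and Sort1 moved apart. M6pr, the cation-dependent mannose 6-phosphate receptor, lies on chromosome 6 from 122308720 to 122317680 of GRCm38, and its total mRNA was at 641, 600.4 and 598 CPM in controls, 1169, 964 and 944 CPM under LPS and 809, 696 and 733 CPM under LPS with torin1. In polysome-associated mRNA it was at 744, 642 and 734 CPM in controls, 1255, 1181 and 1259 CPM under LPS and 1046, 769.6 and 995 CPM under LPS with torin1. Each LPS library was higher than each control library, and with torin1 the levels lay between the other groups without overlap in both RNA types. The log2 fold change with LPS was 0.74 (SE 0.11, edgeR adjusted p = 0.000457) in total and 0.80 (SE 0.15, edgeR adjusted p = 0.00263) in polysome-associated mRNA, and with torin1 against LPS it was −0.46 (edgeR adjusted p = 0.0137) and −0.37 (edgeR adjusted p = 0.133). The last of these calls was lost without experiment 1 and without experiment 3, at −0.44 and −0.39. A pseudogene named after M6pr is annotated, and reads could be divided between the copies.

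Sort1, the receptor sortilin, on chromosome 3 from 108284082 to 108361511, had 13.4, 13.4 and 13.4 CPM in controls, 5.52, 7.49 and 9.16 CPM under LPS and 8.93, 8.96 and 10.2 CPM under LPS with torin1 in total mRNA. Its polysome-associated mRNA was at 12.5, 11.4 and 13.8 CPM in controls, 5.40, 6.65 and 7.70 CPM under LPS and 8.73, 7.59 and 9.72 CPM under LPS with torin1. All LPS libraries were below all control libraries in both RNA types, while LPS and LPS with torin1 overlapped. Sort1 fell with LPS, with a log2 fold change of −0.86 (SE 0.18, edgeR adjusted p = 0.00258) in total and −0.93 (SE 0.19, edgeR adjusted p = 0.00368) in polysome-associated mRNA. With torin1 it was called higher, at 0.34 (edgeR adjusted p = 0.174) and 0.42 (edgeR adjusted p = 0.166), but the first call was lost without experiment 1 or 2, at 0.20 and 0.38, and with only LPS and LPS with torin1 in the model, at 0.33, and the second without experiment 1 or 3, at 0.30 and 0.47.

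Igf2r, the large mannose 6-phosphate receptor, was at 425, 449.9 and 421 CPM in controls, 559, 436 and 516 CPM under LPS and 563, 458 and 581 CPM under LPS with torin1 in total mRNA. On heavy polysomes it was at 486, 373 and 448 CPM in controls, 576, 388 and 605 CPM under LPS and 703, 368 and 638 CPM under LPS with torin1. The groups overlapped in every comparison, and experiment 2 was lowest of the LPS libraries in both RNA types. Igf2r was called with LPS in total mRNA, at 0.22 (edgeR adjusted p = 0.176), although not without experiment 1 or 3, at 0.14 and 0.19. It was not called in polysome-associated mRNA, at 0.26 (edgeR adjusted p = 0.460), but it was called without experiment 2, at 0.33, and with the replicate block, with an adjusted p of 0.198 in edgeR. With torin1 it was called in neither RNA type, at 0.085 and 0.15.

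**Figure D3:**
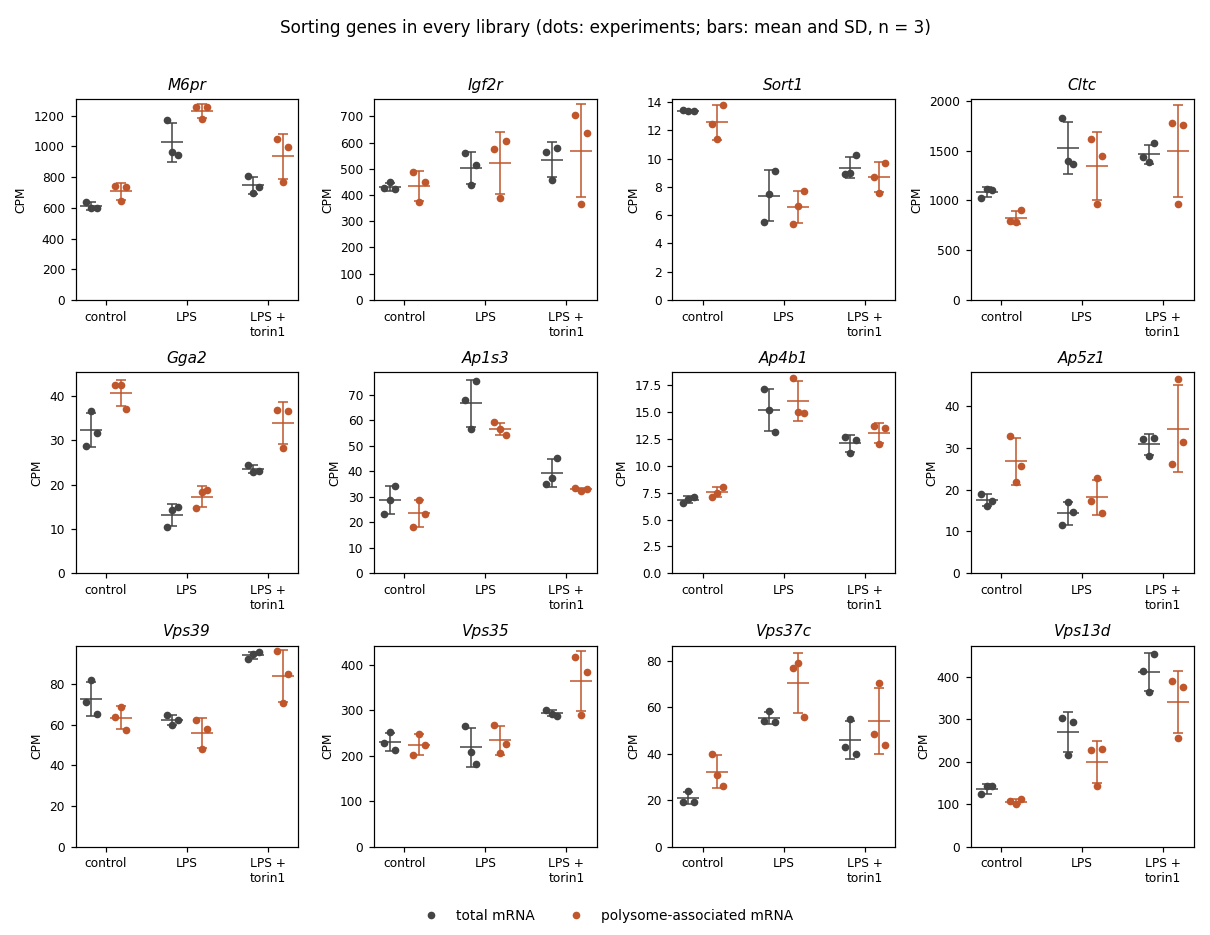
CPM (vertical axes, linear from 0) of 12 members in every library by treatment (horizontal axes), with 1 dot for each experiment and bars for the mean and SD (n = 3), in total and polysome-associated mRNA. M6pr, Cltc, Ap1s3, Ap4b1, Vps37c and Vps13d are higher and Sort1 and Gga2 lower in each LPS library than in each control library of the same RNA type.

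Of the clathrin chains, the heavy chain Cltc, which forms the legs of the triskelion, was at 1029, 1115 and 1107 CPM in controls, 1825, 1392 and 1368 CPM under LPS and 1435, 1386 and 1574 CPM under LPS with torin1 in total mRNA. Its polysome-associated mRNA was at 792, 788 and 902 CPM in controls, 1619, 964 and 1450.2 CPM under LPS and 1776, 960.4 and 1755 CPM under LPS with torin1. LPS libraries lay above control libraries in both RNA types, and experiment 2 gave the lowest polysome-associated level of the LPS and of the torin1 libraries. The log2 fold change with LPS was 0.50 (SE 0.13, edgeR adjusted p = 0.00959) in total and 0.70 (SE 0.25, edgeR adjusted p = 0.0552) in polysome-associated mRNA. The second call was lost without experiment 1, at 0.52. With torin1 Cltc was not called, at −0.061 and 0.18. The light chain Cltb had 59.1, 48.7 and 54.2 CPM in controls, 44.8, 71.5 and 58.4 CPM under LPS and 34.4, 38.8 and 35.99 CPM under LPS with torin1 in total mRNA. On heavy polysomes Cltb had 102, 72.1 and 90.9 CPM in controls, 73.7, 110.1 and 80.9 CPM under LPS and 42.7, 70.9 and 44.6 CPM under LPS with torin1. Control and LPS libraries overlapped, and each torin1 library was below each LPS library. Cltb fell with torin1, at −0.68 (SE 0.16, edgeR adjusted p = 0.00945) in total and −0.72 (SE 0.24, edgeR adjusted p = 0.0759) in polysome-associated mRNA, of which the second was lost without experiment 1 or 3, at −0.70 and −0.66. It was not called with LPS in the fit of all experiments, but it was in total mRNA without experiment 1, at 0.35, and with the other sign in polysome-associated mRNA without experiment 2, at −0.33. The other light chain, Clta, was at 150.4, 155 and 124.1 CPM in controls, 183, 167 and 142 CPM under LPS and 152, 159 and 128 CPM under LPS with torin1 in total mRNA and at 276, 231 and 234 CPM in controls, 285, 261 and 237 CPM under LPS and 241, 237 and 210.5 CPM under LPS with torin1 in polysome-associated mRNA. The groups overlapped. In edgeR's fit with TMM and no block Clta was called in none of these comparisons, with a log2 fold change of 0.19 (edgeR adjusted p = 0.264) for LPS and −0.16 (edgeR adjusted p = 0.393) for torin1 in total mRNA; with the replicate block edgeR gave adjusted p-values of 0.0501 and 0.108, and with LPS Clta was also called by DESeq2 and with DESeq2's size factors in edgeR, at 0.22 in either.

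The 3 GGA genes, whose products are monomeric clathrin adaptors for the mannose 6-phosphate receptors and sortilin, did not share a direction. Gga2, on chromosome 7 from 121986722 to 122021222, was at 28.8, 36.5 and 31.6 CPM in controls, 10.3, 14.2 and 14.8 CPM under LPS and 24.5, 22.9 and 23.1 CPM under LPS with torin1 in total mRNA. On polysomes it was at 42.3, 42.4 and 37.1 CPM in controls, 14.6, 18.4 and 18.8 CPM under LPS and 36.7, 28.3 and 36.6 CPM under LPS with torin1. In both RNA types each LPS library was below each control library and each torin1 library was above each LPS library. Gga2 had the largest fall of all members with LPS, with a log2 fold change of −1.30 (SE 0.15, edgeR adjusted p = 6.81e-05) in total and −1.23 (SE 0.16, edgeR adjusted p = 0.000285) in polysome-associated mRNA. With torin1 against LPS the change was 0.84 (edgeR adjusted p = 0.00294) and 0.99 (edgeR adjusted p = 0.00392). The sister gene Gga1 had 35.4, 36.04 and 39.4 CPM in controls, 34.0, 56.8 and 47.0 CPM under LPS and 57.0, 69.9 and 58.7 CPM under LPS with torin1 in total mRNA. On heavy polysomes Gga1 had 92.0, 63.8 and 68.8 CPM in controls, 68.6, 108 and 64.6 CPM under LPS and 67.2, 124.6 and 69.0 CPM under LPS with torin1. Experiment 2 held the highest LPS level in both RNA types, and control and LPS overlapped. In total mRNA Gga1 was called higher with LPS, at 0.31 (edgeR adjusted p = 0.147), but not without experiment 2 or 3, at 0.12 and 0.35; in polysome-associated mRNA it was not called, at 0.10, and without experiment 2 it was called lower, at −0.28. With torin1 it was called higher in total mRNA, at 0.43 (edgeR adjusted p = 0.0765). Gga3 was at 46.9, 49.2 and 50.4 CPM in controls, 41.7, 34.3 and 45.5 CPM under LPS and 38.5, 35.05 and 40.7 CPM under LPS with torin1 in total mRNA and at 77.1, 66.0 and 76.6 CPM in controls, 68.8, 58.8 and 65.2 CPM under LPS and 56.3, 54.2 and 57.6 CPM under LPS with torin1 in polysome-associated mRNA. Its LPS levels in total mRNA were all below those of control cells, with a log2 fold change of −0.27 (edgeR adjusted p = 0.0787) that was not called without experiment 2, at −0.16. In polysome-associated mRNA it was not called with LPS, but it was with the replicate block, with an adjusted p of 0.209 in edgeR. It was called in neither RNA type with torin1.

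In AP-1, the clathrin adaptor of the Golgi and endosomes, 6 of 8 genes were called with LPS in total mRNA, 5 higher and 1 lower. That is 75%, beside 66.5% of all genes. The polysome-associated count was 3 of 8, 2 higher and 1 lower (37.5% beside 55.1% of all genes). The 3 small subunits showed 3 patterns. Ap1s3, on chromosome 1 from 79606876 to 79671972, had 23.4, 28.7 and 34.2 CPM in controls, 67.9, 56.6 and 75.2 CPM under LPS and 35.005, 37.5 and 45.4 CPM under LPS with torin1 in total mRNA. Polysome-associated levels were 18.3, 28.7 and 23.4 CPM in controls, 59.2, 56.5 and 54.3 CPM under LPS and 33.5, 32.2 and 32.9 CPM under LPS with torin1. Each LPS library exceeded each control library, and each torin1 library was below each LPS library. Ap1s3 had the largest rise of all members in polysome-associated mRNA with LPS, at 1.27 (SE 0.17, edgeR adjusted p = 0.000278), beside 1.21 (edgeR adjusted p = 0.000185) in total mRNA, and it fell with torin1, at −0.76 (edgeR adjusted p = 0.00659) and −0.76 (edgeR adjusted p = 0.0146). Another annotated gene overlaps it on the same strand. Ap1s1 was at 104, 97.7 and 112.1 CPM in controls, 104, 132 and 148 CPM under LPS and 76.4, 74.9 and 83.9 CPM under LPS with torin1 in total mRNA. On heavy polysomes Ap1s1 was at 202, 189 and 174 CPM in controls, 200.3, 256 and 203 CPM under LPS and 120.4, 146 and 116 CPM under LPS with torin1. Torin1 libraries were below LPS libraries without overlap, whereas LPS and control libraries overlapped. Ap1s1 fell with torin1, at −0.70 (SE 0.13, edgeR adjusted p = 0.00368) and −0.76 (SE 0.16, edgeR adjusted p = 0.0133), and with LPS it was called in total mRNA, at 0.29 (edgeR adjusted p = 0.0947), and in polysome-associated mRNA it was not, but with the replicate block it was, with an adjusted p of 0.212 in edgeR. Ap1s2 was at 32.4, 31.5 and 34.4 CPM in controls, 24.4, 23.03 and 21.7 CPM under LPS and 27.4, 27.9 and 28.9 CPM under LPS with torin1 in total mRNA and at 17.2, 26.2 and 22.6 CPM in controls, 16.6, 15.7 and 18.2 CPM under LPS and 20.5, 19.9 and 22.3 CPM under LPS with torin1 in polysome-associated mRNA. It was lower with LPS without overlap in total mRNA, at −0.51 (edgeR adjusted p = 0.00138); in polysome-associated mRNA the groups overlapped, at −0.39 (edgeR adjusted p = 0.114), and that call was lost without experiment 2 or 3, at −0.21 and −0.42.

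The medium chains of AP-1, which read tyrosine-based signals in cargo, were at very different levels. Ap1m1, found in all tissues, was at 65.5, 74.1 and 72.6 CPM in controls, 75.9, 88.4 and 102 CPM under LPS and 87.1, 95.0 and 88.7 CPM under LPS with torin1 in total mRNA. On heavy polysomes Ap1m1 was at 112.7, 100.0 and 91.8 CPM in controls, 112.9, 112.6 and 115 CPM under LPS and 117.3, 127 and 112.3 CPM under LPS with torin1. With LPS it was higher without overlap in total mRNA, at 0.33 (edgeR adjusted p = 0.0407), and the groups overlapped in polysome-associated mRNA, at 0.16, where it was not called. Ap1m2 was at 0.152, 0.205 and 0.117 CPM in controls, 0.178, 0.0601 and 0.124 CPM under LPS and 0.725, 0.875 and 0.908 CPM under LPS with torin1 in total mRNA. On heavy polysomes it was at 0.341, 0.249 and 0.132 CPM in controls, 0.260, 0.453 and 0.210 CPM under LPS and 0.667, 0.961 and 0.660 CPM under LPS with torin1. Each torin1 library was above each LPS library, with all levels under 1 CPM. Of all members Ap1m2 had the largest rise with torin1, at 2.78 (SE 0.41, edgeR adjusted p = 0.00114) in total and 1.31 (SE 0.45, edgeR adjusted p = 0.0773) in polysome-associated mRNA, and the second call was lost without experiment 1 or 3, at 1.299 and 1.202. Ap1ar, the regulator of AP-1, had 76.0, 75.9 and 80.0 CPM in controls, 65.4, 57.0 and 66.8 CPM under LPS and 75.7, 72.1 and 75.9 CPM under LPS with torin1 in total mRNA. On heavy polysomes Ap1ar had 38.2, 44.1 and 41.6 CPM in controls, 29.1, 29.9 and 38.4 CPM under LPS and 38.8, 33.1 and 47.7 CPM under LPS with torin1. Its total mRNA was lower with LPS without overlap, at −0.29 (edgeR adjusted p = 0.0230), and its polysome-associated mRNA was below its total mRNA in every lysate.

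In AP-2, the endocytic adaptor of the plasma membrane, 3 of 5 genes were called with LPS in each RNA type. That is 60%, beside 66.5% and 55.1% of all genes in total and polysome-associated mRNA. The large chain Ap2b1 and the medium chain Ap2m1 rose, at 0.71 and 0.24 in total mRNA, and Ap2a2 fell, at −0.22. The small chain Ap2s1 was at 57.0, 45.4 and 58.7 CPM in controls, 47.1, 80.6 and 52.3 CPM under LPS and 47.1, 54.9 and 51.9 CPM under LPS with torin1 in total mRNA. On heavy polysomes Ap2s1 was at 124.8, 101.4 and 111.1 CPM in controls, 112.7, 161 and 85.2 CPM under LPS and 69.4, 134 and 57.1 CPM under LPS with torin1. The groups overlapped between treatments, experiment 2 was highest with LPS and with torin1, and Ap2s1 was not called with either, but with the replicate block it was lower with torin1 in polysome-associated mRNA, with an adjusted p of 0.198 in edgeR. In AP-3, which carries lysosomal membrane proteins, 3 of 6 genes were called with LPS in total mRNA (50% beside 66.5% of all genes), all higher. There the replicate block also called Ap3s2 lower, with an adjusted p of 0.248 in edgeR. On polysomes LPS gave 1 higher (16.7% beside 55.1% of all genes) and the block 3 higher. Without experiment 2 it gave 4 higher and 1 lower there (64.5% of all genes called). With torin1 5 of 6 were called higher in polysome-associated mRNA (Ap3b1, Ap3d1, Ap3m2, Ap3s1 and Ap3s2) and 3 in total mRNA. These are 83.3% and 50%, beside 38.4% and 53.7% of all genes called. The count of 5 was 2 without experiment 1, 5 without experiment 2 and 1 without experiment 3, where 15.8%, 46.1% and 10.6% of all genes were called. The large chain Ap3b1 was at 86.0, 103 and 86.2 CPM in controls, 143, 124.7 and 113.1 CPM under LPS and 135.2, 141 and 123.4 CPM under LPS with torin1 in total mRNA. On polysomes Ap3b1 was at 56.8, 60.3 and 59.4 CPM in controls, 91.5, 75.6 and 85.8 CPM under LPS and 110.7, 91.6 and 103 CPM under LPS with torin1. LPS libraries were above control libraries in both RNA types, and only in polysome-associated mRNA were the torin1 libraries all above the LPS libraries. The log2 fold change with LPS was 0.47 (SE 0.12, edgeR adjusted p = 0.00892) and 0.52 (SE 0.13, edgeR adjusted p = 0.0118), and with torin1 it was 0.070 (edgeR adjusted p = 0.697) and 0.30 (edgeR adjusted p = 0.158). Pseudogenes are annotated for Ap3m1 and Ap3s1, whose counts are uncertain for that reason.

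AP-4, which exports cargo such as an autophagy protein from the Golgi, held members that moved in opposite directions with LPS. Its large chain Ap4b1, on chromosome 3 from 103809520 to 103822025, was at 6.54, 6.91 and 7.15 CPM in controls, 17.2, 15.2 and 13.2 CPM under LPS and 12.7, 11.2 and 12.5 CPM under LPS with torin1 in total mRNA. On heavy polysomes Ap4b1 was at 7.14, 7.52 and 8.04 CPM in controls, 18.2, 15.0 and 14.9 CPM under LPS and 13.8, 12.04 and 13.52 CPM under LPS with torin1. Every LPS library was above every control library, and torin1 libraries lay between them. Ap4b1 rose with LPS, at 1.15 (SE 0.14, edgeR adjusted p = 8.14e-05) and 1.08 (SE 0.16, edgeR adjusted p = 0.000530). Torin1 lowered it in total mRNA, at −0.33 (edgeR adjusted p = 0.0900), and in polysome-associated mRNA the replicate block changed its call to lower, with adjusted p-values of 0.285 without and 0.219 with it in edgeR. The medium chain Ap4m1 was at 22.8, 18.5 and 18.6 CPM in controls, 16.1, 11.7 and 12.7 CPM under LPS and 20.96, 17.9 and 16.9 CPM under LPS with torin1 in total mRNA. Ap4m1 on polysomes was at 22.02, 18.4 and 17.3 CPM in controls, 15.9, 11.8 and 11.8 CPM under LPS and 20.5, 17.2 and 16.4 CPM under LPS with torin1. LPS libraries were below control libraries and below torin1 libraries in both RNA types. Ap4m1 fell with LPS, at −0.57 (edgeR adjusted p = 0.0123) and −0.55 (edgeR adjusted p = 0.0401), and was higher with torin1, at 0.46 (edgeR adjusted p = 0.0464) and 0.48 (edgeR adjusted p = 0.108). Its polysome-associated call with torin1 is among 11 adaptor subunits called higher, a count that was 4 without experiment 1 and 2 without experiment 3. Other annotated genes overlap Ap4b1 on the same strand and Ap4m1 on the opposite strand.

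AP-5, the adaptor of late endosomes that works with spatacsin, had 2 genes that rose with torin1 and 1, Ap5m1, that was called lower in total mRNA alone, at −0.21 (edgeR adjusted p = 0.245). Ap5z1, on chromosome 5 from 142463944 to 142478710, was at 19.05, 16.2 and 17.4 CPM in controls, 11.4, 16.9 and 14.8 CPM under LPS and 32.1, 27.9 and 32.3 CPM under LPS with torin1 in total mRNA. On heavy polysomes Ap5z1 was at 32.9, 21.8 and 25.5 CPM in controls, 17.4, 22.7 and 14.5 CPM under LPS and 26.2, 46.3 and 31.2 CPM under LPS with torin1. Each torin1 library exceeded each LPS library of its RNA type, while control and LPS overlapped. With LPS it was called lower, at −0.28 (edgeR adjusted p = 0.145) and −0.55 (edgeR adjusted p = 0.130), although in experiment 2 its level was higher with LPS in both RNA types. Without experiments 1 and 3, adaptor subunits called lower with LPS numbered 2 and 2 in total mRNA, in place of 4. In polysome-associated mRNA they numbered 2 and 1, also in place of 4. The log2 fold change of Ap5z1 with torin1 was 1.10 (SE 0.15, edgeR adjusted p = 0.000720) and 0.95 (SE 0.26, edgeR adjusted p = 0.0368), the second of which was lost without experiment 3, at 0.89. The small chain Ap5s1 was at 8.70, 10.6 and 9.67 CPM in controls, 8.65, 11.9 and 8.38 CPM under LPS and 21.7, 21.5 and 20.6 CPM under LPS with torin1 in total mRNA. Its polysome-associated mRNA was at 17.9, 19.9 and 13.004 CPM in controls, 18.3, 23.02 and 11.96 CPM under LPS and 26.4, 44.7 and 23.8 CPM under LPS with torin1. Torin1 libraries again lay above LPS libraries without overlap. Ap5s1 rose with torin1, at 1.14 (SE 0.16, edgeR adjusted p = 0.000728) and 0.86 (SE 0.31, edgeR adjusted p = 0.0892). The second is among 11 adaptor subunits called higher, a count that was 4 without experiment 1 and 2 without experiment 3. The large chain Ap5b1 was at 37.7, 23.5 and 32.8 CPM in controls, 15.8, 44.5 and 28.5 CPM under LPS and 32.3, 38.2 and 34.6 CPM under LPS with torin1 in total mRNA and at 91.3, 46.2 and 69.4 CPM in controls, 48.3, 72.3 and 36.2 CPM under LPS and 38.7, 83.8 and 32.1 CPM under LPS with torin1 in polysome-associated mRNA. Its values spread widely, with experiment 2 lowest in control cells and highest with LPS, and it was called in none of these 4 comparisons.

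Of the HOPS and CORVET genes, Vps39 and Vps41 encode the subunits particular to HOPS that meet the membranes, and Vps18 a subunit of the shared core. Vps39, on chromosome 2 from 120316461 to 120353137, was at 71.0, 81.8 and 65.3 CPM in controls, 64.7, 59.7 and 62.2 CPM under LPS and 92.1, 94.7 and 95.5 CPM under LPS with torin1 in total mRNA. On heavy polysomes Vps39 was at 63.8, 68.9 and 57.6 CPM in controls, 62.1, 47.8 and 57.8 CPM under LPS and 95.97, 70.8 and 84.8 CPM under LPS with torin1. Each torin1 library was above each LPS library in both RNA types, and above each control library too. Vps39 rose with torin1, at 0.60 (SE 0.10, edgeR adjusted p = 0.00211) and 0.61 (SE 0.16, edgeR adjusted p = 0.0289), of which the second was lost without experiment 3, at 0.64. With LPS it was called lower in total mRNA, at −0.22 (edgeR adjusted p = 0.0913), but not without experiment 2, at −0.10. Vps41 was at 84.0, 104 and 83.0 CPM in controls, 98.1, 86.9 and 82.6 CPM under LPS and 98.8, 107.5 and 104 CPM under LPS with torin1 in total mRNA. Vps41 on polysomes was at 59.8, 93.3 and 78.0 CPM in controls, 83.9, 64.8 and 84.8 CPM under LPS and 100.2, 82.8 and 110.1 CPM under LPS with torin1. Torin1 and LPS overlapped in polysome-associated but not in total mRNA. The calls of Vps41 with torin1, at 0.21 (edgeR adjusted p = 0.192) and 0.35 (edgeR adjusted p = 0.237), were weak: the first was lost without experiment 2 or 3, at 0.16 and 0.16, the second without experiment 1 or 3, at 0.40 and 0.34, and both with DESeq2, at 0.19 and 0.33. With LPS Vps41 was not called, except in polysome-associated mRNA without experiment 2, at 0.28. Vps18 was at 77.0, 62.1 and 75.3 CPM in controls, 44.5, 77.5 and 60.8 CPM under LPS and 93.2, 81.9 and 83.5 CPM under LPS with torin1 in total mRNA and at 161, 90.9 and 108 CPM in controls, 110.3, 94.1 and 70.7 CPM under LPS and 101.2, 112.6 and 76.3 CPM under LPS with torin1 in polysome-associated mRNA. It was higher with torin1 in total mRNA without overlap, at 0.50 (edgeR adjusted p = 0.0562), and not called in polysome-associated mRNA, at 0.10. With LPS the replicate block called it lower in polysome-associated mRNA, with adjusted p-values of 0.263 without and 0.133 with it in edgeR. Vps11 and Vps8 were called higher with torin1 in both RNA types, and Vps16 and Vps33a in neither.

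Retromer is built of Vps35, Vps29 and one of the paralogs Vps26a and Vps26b, and the paralogs moved in opposite directions with LPS. Vps26a, on chromosome 10 from 62455235 to 62486805, was at 137, 149 and 123.9 CPM in controls, 232, 182 and 165 CPM under LPS and 231, 227 and 230.3 CPM under LPS with torin1 in total mRNA. On heavy polysomes Vps26a was at 56.1, 88.7 and 73.7 CPM in controls, 122, 98.7 and 116 CPM under LPS and 139, 115 and 171 CPM under LPS with torin1. LPS libraries were above control libraries in both RNA types, and LPS and torin1 libraries overlapped. Its log2 fold change with LPS was 0.50 (SE 0.13, edgeR adjusted p = 0.0107) and 0.62 (SE 0.20, edgeR adjusted p = 0.0329), and the second call was lost without experiment 1, at 0.41. With torin1 it was called higher, at 0.25 (edgeR adjusted p = 0.185) and 0.36 (edgeR adjusted p = 0.246); the first call was lost without experiment 2 or 3, at 0.22 and 0.14, and with only those treatments in the model, at 0.24, and the second without experiment 1 or 3, at 0.44 and 0.24, and with DESeq2, at 0.34. Vps26b was at 56.7, 55.2 and 56.9 CPM in controls, 43.7, 41.6 and 40.9 CPM under LPS and 44.6, 44.0 and 41.7 CPM under LPS with torin1 in total mRNA. Its polysome-associated mRNA was at 58.3, 50.4 and 60.5 CPM in controls, 41.7, 41.9 and 50.2 CPM under LPS and 47.2, 41.2 and 52.9 CPM under LPS with torin1. Every LPS library was below every control library. Vps26b fell with LPS, at −0.42 (SE 0.081, edgeR adjusted p = 0.00186) and −0.34 (SE 0.15, edgeR adjusted p = 0.106), the second of which was lost without experiment 1 or 3, at −0.27 and −0.37. It was not called with torin1.

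Vps35, the scaffold of retromer, was at 228, 251 and 212 CPM in controls, 266, 207 and 183 CPM under LPS and 301, 291 and 288 CPM under LPS with torin1 in total mRNA. Polysome-associated Vps35 was at 202, 249 and 223 CPM in controls, 268, 206 and 226 CPM under LPS and 416, 289.6 and 385 CPM under LPS with torin1. Control and LPS overlapped, and each torin1 library was above each LPS library. Vps35 rose with torin1, at 0.42 (SE 0.14, edgeR adjusted p = 0.0396) and 0.66 (SE 0.17, edgeR adjusted p = 0.0297), the second of which was lost without experiment 3, at 0.61. With LPS it was not called, except in total mRNA without experiment 1, at −0.24. Vps29 was at 56.2, 66.1 and 53.9 CPM in controls, 75.7, 70.1 and 58.1 CPM under LPS and 80.4, 83.1 and 76.2 CPM under LPS with torin1 in total mRNA. On heavy polysomes Vps29 was at 73.5, 93.1 and 68.2 CPM in controls, 114, 95.4 and 96.8 CPM under LPS and 135.01, 99.3 and 109 CPM under LPS with torin1. LPS levels were above control levels without overlap in polysome-associated mRNA alone. Vps29 was called higher with LPS, at 0.21 (edgeR adjusted p = 0.180) and 0.38 (edgeR adjusted p = 0.108), but the first call was lost without experiment 1, at 0.11, and the second without experiment 1 or 3, at 0.26 and 0.34. Torin1 raised it in total mRNA, at 0.23 (edgeR adjusted p = 0.171), and not without experiment 2 or 3, at 0.23 and 0.17.

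Among the ESCRT genes, those of the Vps37 subunits of ESCRT-I, which binds ubiquitinated cargo, held the largest rises with LPS. Vps37c, on chromosome 19 from 10688735 to 10714627, was at 19.4, 23.9 and 19.3 CPM in controls, 53.9, 58.3 and 53.9 CPM under LPS and 42.8, 55.2 and 40.1 CPM under LPS with torin1 in total mRNA. On heavy polysomes Vps37c was at 40.0, 30.7 and 26.1 CPM in controls, 76.9, 79.0 and 55.8 CPM under LPS and 48.7, 70.5 and 43.7 CPM under LPS with torin1. All LPS libraries were above all control libraries, and LPS and torin1 overlapped. In total mRNA this was the largest rise of any member, at 1.40 (SE 0.14, edgeR adjusted p = 2.66e-05), beside 1.13 (SE 0.24, edgeR adjusted p = 0.00436) in polysome-associated mRNA. Torin1 lowered it in total mRNA, at −0.27 (edgeR adjusted p = 0.166), and in polysome-associated mRNA the replicate block changed its call to lower, with adjusted p-values of 0.346 without and 0.167 with it in edgeR. The call in total mRNA was lost without experiment 1 or 3, where 0 ESCRT genes were lower. Vps37a, on chromosome 8 from 40511783 to 40551134, was at 29.8, 26.3 and 30.99 CPM in controls, 75.0, 47.5 and 58.7 CPM under LPS and 58.6, 51.6 and 59.7 CPM under LPS with torin1 in total mRNA. On polysomes Vps37a was at 13.7, 16.3 and 16.6 CPM in controls, 35.9, 25.5 and 39.8 CPM under LPS and 38.7, 26.8 and 48.2 CPM under LPS with torin1. Again no LPS library overlapped a control library. Vps37a rose with LPS, at 1.06 (SE 0.16, edgeR adjusted p = 0.000340) and 1.11 (SE 0.23, edgeR adjusted p = 0.00390), and was not called with torin1, at −0.093 and 0.19. Vps37b was at 9.37, 5.75 and 7.94 CPM in controls, 6.27, 15.2 and 7.98 CPM under LPS and 7.84, 9.36 and 7.54 CPM under LPS with torin1 in total mRNA and at 21.1, 11.8 and 15.9 CPM in controls, 14.2, 24.03 and 11.5 CPM under LPS and 9.52, 21.5 and 10.2 CPM under LPS with torin1 in polysome-associated mRNA. Its groups overlapped, with experiment 2 highest of the LPS and of the torin1 libraries, and it was called in none of these comparisons. Of the ATPases that disassemble ESCRT-III, Vps4b rose and Vps4a fell with LPS in total mRNA, at 0.30 (edgeR adjusted p = 0.0377) and −0.24 (edgeR adjusted p = 0.0844). The call of Vps4a was lost without experiment 2, where 0 of the 7 ESCRT genes were lower.

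In the Golgi tether GARP, Vps54 had 69.7, 67.6 and 66.6 CPM in controls, 130.4, 118.03 and 102 CPM under LPS and 111.8, 121 and 109 CPM under LPS with torin1 in total mRNA. On heavy polysomes Vps54 had 38.4, 53.6 and 46.2 CPM in controls, 101.2, 80.5 and 79.2 CPM under LPS and 102, 90.3 and 102 CPM under LPS with torin1. LPS was above control without overlap, and LPS overlapped torin1. Vps54 rose with LPS, at 0.78 (SE 0.11, edgeR adjusted p = 0.000204) and 0.92 (SE 0.16, edgeR adjusted p = 0.00166). The VPS13 proteins are long bridges that pass lipids between membranes, and their genes went separate ways. Vps13c was at 621, 684 and 733 CPM in controls, 460.2, 477 and 514 CPM under LPS and 538, 601 and 697 CPM under LPS with torin1 in total mRNA. Vps13c on polysomes was at 332, 375 and 449.7 CPM in controls, 233, 200.4 and 352 CPM under LPS and 422, 297 and 527 CPM under LPS with torin1. In total mRNA LPS was below control and below torin1 without overlap, and in polysome-associated mRNA the groups overlapped. Vps13c fell with LPS, at −0.49 (edgeR adjusted p = 0.00709) and −0.56 (edgeR adjusted p = 0.111), and the second call was lost without experiment 1, at −0.58. It was higher again under torin1, at 0.34 (edgeR adjusted p = 0.0560) and 0.69 (edgeR adjusted p = 0.0930). Vps13d, chosen after its values were seen, was at 123.4, 143 and 142 CPM in controls, 303, 217 and 293 CPM under LPS and 413, 365 and 455 CPM under LPS with torin1 in total mRNA. On heavy polysomes Vps13d was at 106.9, 100.99 and 111.1 CPM in controls, 228, 142 and 229 CPM under LPS and 389, 256 and 376 CPM under LPS with torin1. LPS was above control and torin1 above LPS without overlap in both RNA types. Its log2 fold change was 0.99 (SE 0.14, edgeR adjusted p = 0.000313) and 0.91 (SE 0.21, edgeR adjusted p = 0.00768) with LPS, and a further 0.60 (edgeR adjusted p = 0.0112) and 0.79 (edgeR adjusted p = 0.0319) with torin1 against LPS.

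**Figure D4:**
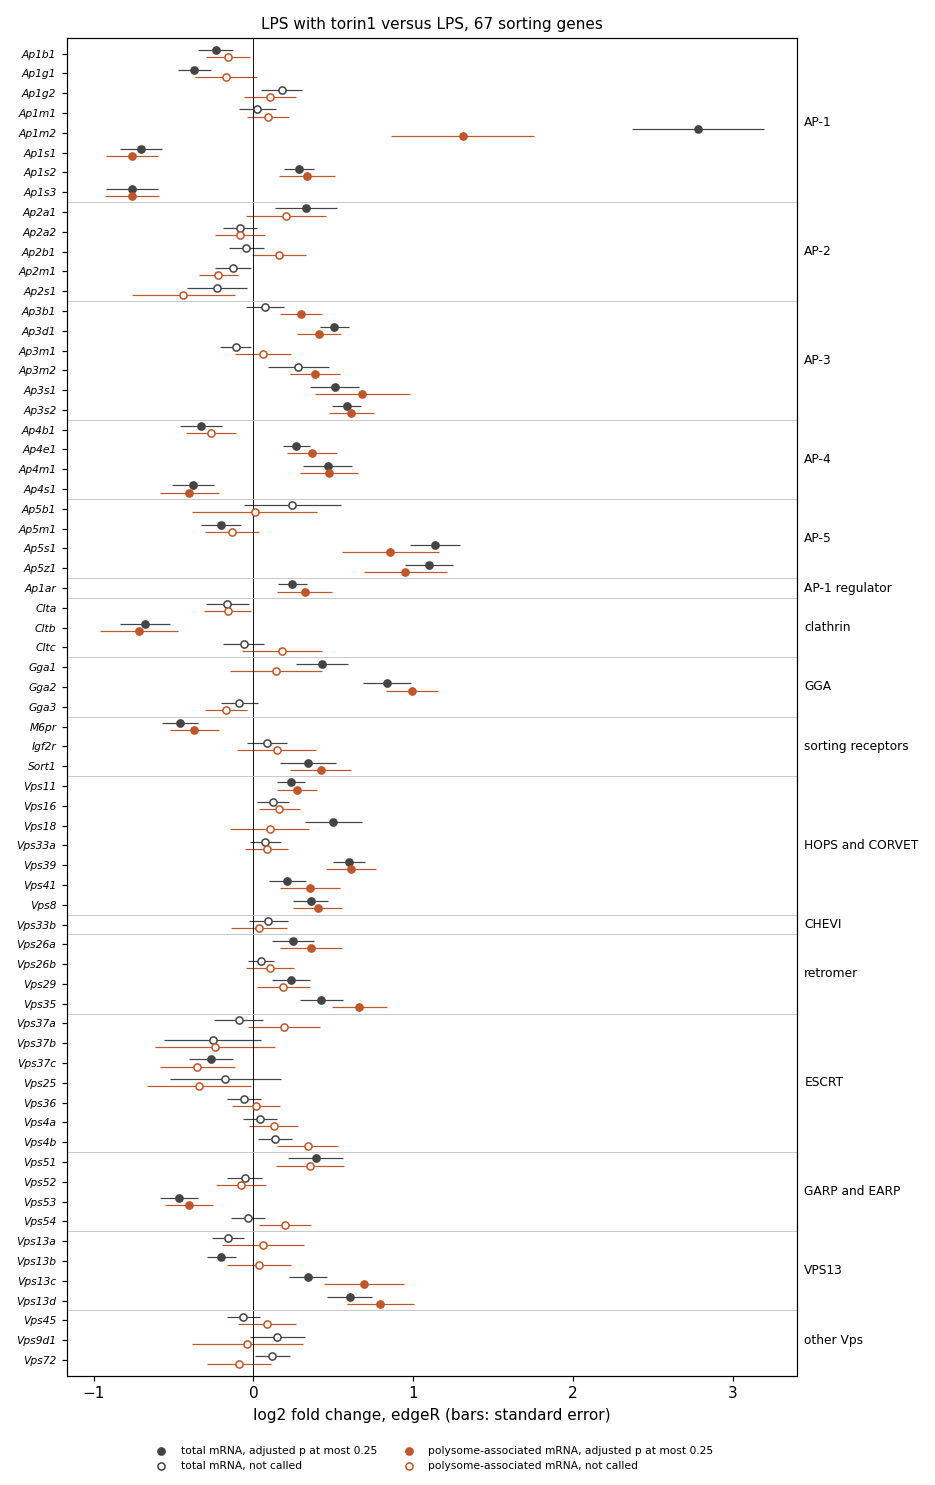
Log2 fold changes between LPS with torin1 and LPS alone (horizontal axis) for the 67 members (vertical axis, grouped by complex on the right) in total and polysome-associated mRNA, with bars for the standard error and filled points for an adjusted p of at most 0.25 in edgeR. Ap1m2, Ap5s1 and Ap5z1 lie at the right in total mRNA, at 2.78, 1.14 and 1.10, and Ap1s3, Ap1s1 and Cltb at the left, at −0.76, −0.70 and −0.68.

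Whether a treatment moved the polysome-associated mRNA of a member more or less than its total mRNA, its translation efficiency, was judged by the interaction term between treatment and RNA type in an edgeR model of all 18 libraries, with calls limited to folds of 1.2 or more. With LPS, 0 of 67 members were called, against 0% of all genes. An unadjusted p under 0.05 in edgeR was found for 0 members and for 44 of all 11243 genes. With torin1, 0 of 67 members were called, against 0% of all genes. Here 1 member, Ap1m2, and 110 of all 11243 genes had an unadjusted p under 0.05 in edgeR. The replicate block gave 0 genes with LPS and 25 with torin1 (0.222%), all lower, of which 0 were members. DESeq2 called 0 members in either comparison, of 1 and 7 genes called in all, and the analysis of partial variance called 0 as well. The smallest unadjusted p-values with LPS belonged to Ap1m2, Ap1m1 and Vps37c, whose interaction estimates were 0.81 (SE 0.68, edgeR adjusted p = 1.00), −0.17 (SE 0.16, edgeR adjusted p = 1.00) and −0.28 (SE 0.28, edgeR adjusted p = 1.00) on the log2 scale. With torin1 they belonged to Ap1m2, Vps18 and Ap3b1, with −1.50 (SE 0.61, edgeR adjusted p = 1.00), −0.42 (SE 0.32, edgeR adjusted p = 1.00) and 0.20 (SE 0.17, edgeR adjusted p = 1.00). The classes had median interaction estimates with torin1 of −0.013 for the adaptor subunits, 0.013 for HOPS and CORVET, 0.060 for retromer and 0.055 for ESCRT, beside −0.021 over all genes. M6pr had interaction estimates of 0.059 (SE 0.18, edgeR adjusted p = 1.00) with LPS and 0.064 (SE 0.18, edgeR adjusted p = 1.00) with torin1. The tool the authors used for translation efficiency, anota2seq, was not available and was not run, so these tests do not repeat theirs. The edgeR model without a block treats both RNA types of a lysate as independent, although they deviated together, with a lowest correlation of 0.478. So few genes of any kind passed in it that the counts of 0 do not set the members apart from other genes. A difference was not detected by the tests used here with 3 experiments, which does not show that there was none.

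The share of each mRNA that was on heavy polysomes was compared in control cells, relative to all genes, with the same 6-group model. Here 51 of 67 members were called (76.1%), against 69.6% of all genes, with 25 richer and 26 poorer in polysome-associated than in total mRNA, beside 36.3% and 33.2%. The median log2 ratio was −0.053 over the members and 0.028 over all genes. The largest ratios called in the same direction in all 3 experiments were those of Ap5b1, Vps37b and Ap2s1, at 1.14 (SE 0.38, edgeR adjusted p = 0.0223), 1.08 (SE 0.37, edgeR adjusted p = 0.0241) and 1.07 (SE 0.28, edgeR adjusted p = 0.00588). The lowest were those of Vps13a, Vps26a and Ap1ar, at −1.03 (SE 0.21, edgeR adjusted p = 0.00118), −0.91 (SE 0.18, edgeR adjusted p = 0.000838) and −0.90 (SE 0.14, edgeR adjusted p = 0.000147). Vps13a, for example, was at 182, 169 and 197 CPM in controls, 172, 147 and 161 CPM under LPS and 137, 139.7 and 152 CPM under LPS with torin1 in total mRNA. On heavy polysomes Vps13a was at 70.5, 89.3 and 109 CPM in controls, 70.2, 60.2 and 99.8 CPM under LPS and 75.7, 55.8 and 104 CPM under LPS with torin1, below its total mRNA in every lysate. Vps13a was not called with torin1 in total mRNA, at −0.16 (edgeR adjusted p = 0.273), but it was with the replicate block, with an adjusted p of 0.145 in edgeR, and so it was with LPS in polysome-associated mRNA, with 0.240.

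By complex, 4 of 4 VPS13 genes were poorer, with a median log2 ratio of −0.73, while 3 of 3 GGA genes, 3 of 4 AP-5 genes and 4 of 5 AP-2 genes were richer, with medians of 0.58, 0.71 and 0.30. Clathrin was divided: the light chains Clta and Cltb were richer, at 0.79 (edgeR adjusted p = 0.000363) and 0.71 (edgeR adjusted p = 0.0109), and the heavy chain Cltc was poorer, at −0.39 (edgeR adjusted p = 0.138). In retromer Vps29 was richer and Vps26a poorer, and Vps35 and Vps26b were not called, at −0.038 and 0.0038. HOPS and CORVET had 1 richer gene, Vps18, and 3 poorer ones. With each lysate as a replicate block it had 1 richer and 5 poorer, with Vps8 and Vps41 added, and the poorer ones were 2, 1 and 0 without experiments 1, 2 and 3. Of all genes 80% were called with that block, and 54.8%, 69.9% and 59.3% without experiments 1, 2 and 3. Vps41 was not called without the block, at −0.23 (edgeR adjusted p = 0.251), and was called with each lysate as a replicate block, with an adjusted p of 0.0907 in edgeR.

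**Figure D5:**
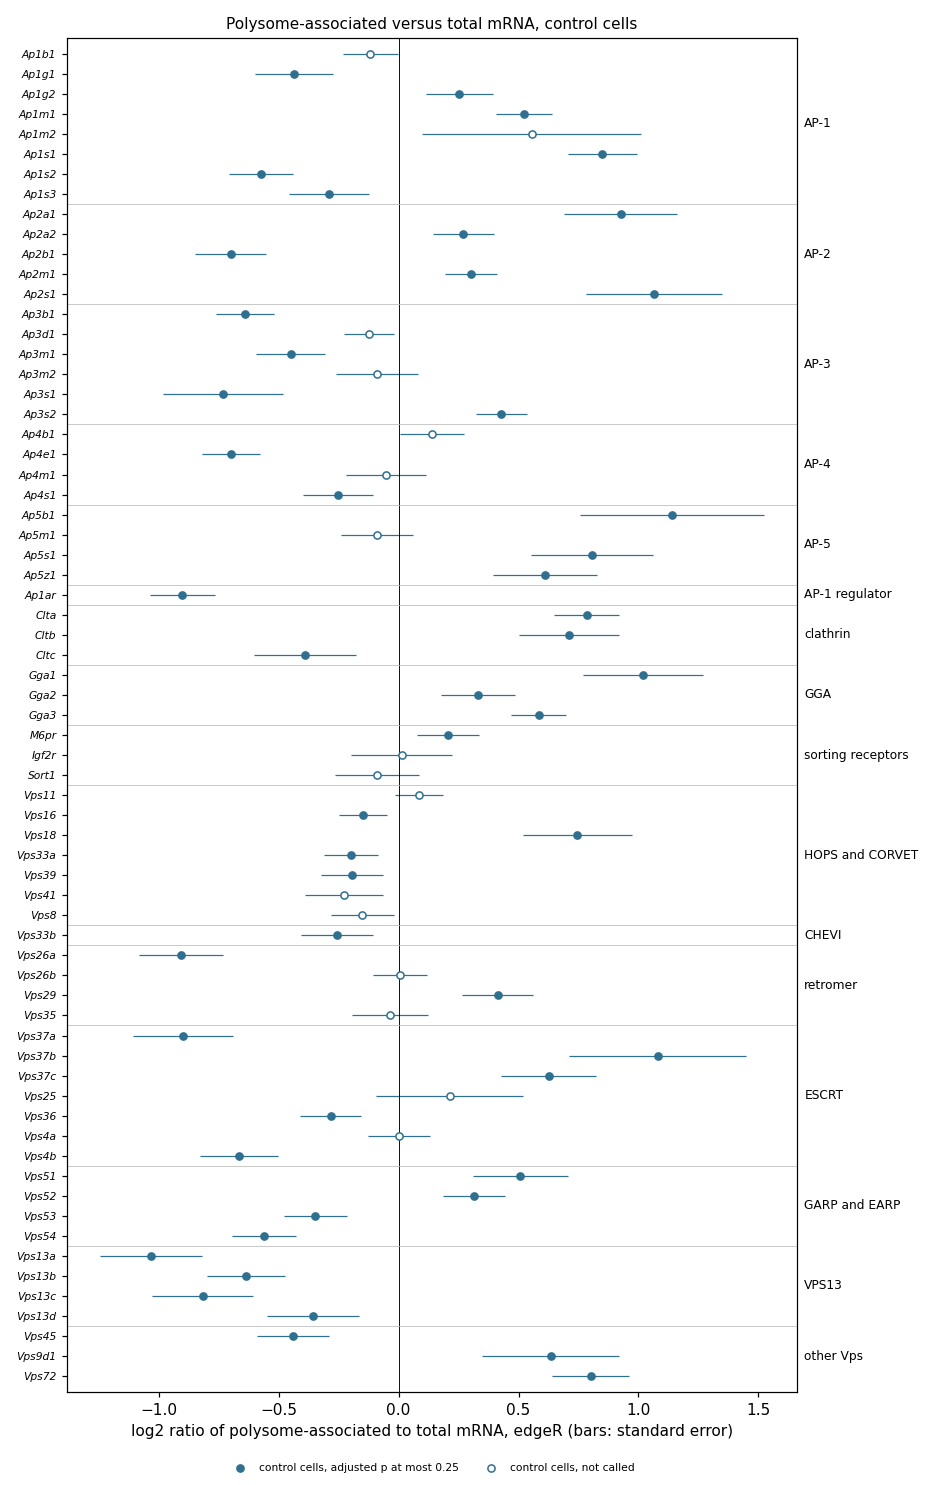
Log2 ratio of polysome-associated to total mRNA in control cells (horizontal axis) for the 67 members (vertical axis, grouped by complex on the right), with bars for the standard error and filled points for an adjusted p of at most 0.25 in edgeR. The 4 VPS13 genes lie left of 0, from −1.03 to −0.36, and the 3 GGA genes right of it, from 0.33 to 1.02.

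The machinery whose symbols the rule does not reach was followed in lists of 92 partner genes, of which 88 were in the table. In polysome-associated mRNA 47 of the 88 were called with LPS, 32 higher and 15 lower, and in total mRNA 51 were, 33 higher and 18 lower. These are 53.4% and 58.0%, against 55.1% and 66.5% of all genes, with medians of 0.047 and 0.055 beside −0.031 and −0.018 over all genes. Of 20 other ESCRT genes, there were 11 higher and 1 lower in polysome-associated mRNA and 12 higher and 1 lower in total mRNA, with median log2 fold changes of 0.35 and 0.41. Of 27 accessories of the clathrin coat the counts were 11 higher and 5 lower and 12 higher and 7 lower, of 13 retromer partners 5 higher and 2 lower and 4 higher and 2 lower, and of 6 HOPS, CORVET and CHEVI partners 2 higher and 3 lower and 2 higher and 4 lower. For 12 genes of retriever and the CCC complex they were 1 higher and 2 lower in either RNA type, for the 4 genes of the VPS34 complex 1 higher and 1 lower and for the 3 enzymes of the mannose 6-phosphate tag 1 higher and 1 lower, also in either, and for 3 partners of AP-4 and AP-5 none was called.

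With torin1 against LPS, 59.1% of the 88 partners were called in total mRNA and 40.9% on polysomes, beside 53.7% and 38.4% of all genes. In total mRNA 31 were higher and 21 lower, where 27.3% and 26.4% of all genes were, and on polysomes 24 and 12, where 20.3% and 18.2% were. All 6 of the HOPS, CORVET and CHEVI partners were called higher in total mRNA, 4 of them on polysomes too, with medians of 0.34 and 0.43 beside 0.0012 and −3.5e-04 over all genes. The retromer partners had 6 higher and 3 lower of 13 in total mRNA, the other ESCRT genes 2 higher and 5 lower of 20 (6 higher and 5 lower with the replicate block) and the accessories of the clathrin coat 11 higher and 7 lower of 27. The 3 partners of AP-4 and AP-5 were all higher in total mRNA. Retriever and CCC genes had 0 higher and 4 lower of 12, the VPS34 complex 2 higher and 1 lower of 4 and the tag enzymes 1 higher and 1 lower of 3.

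The largest rises of partners in polysome-associated mRNA with LPS were those of Hip1r, Chmp4b and Dab2. Hip1r, which links clathrin coats to actin, was at 1.77, 1.59 and 2.00 CPM in controls, 4.03, 5.24 and 4.63 CPM under LPS and 5.72, 10.1 and 8.38 CPM under LPS with torin1. The ESCRT-III subunit Chmp4b was at 135.6, 156 and 128 CPM in controls, 309, 410.0 and 270.0 CPM under LPS and 217, 313 and 209 CPM under LPS with torin1. Dab2, an adaptor for receptors of the LDL receptor family, was at 120.1, 127 and 153 CPM in controls, 257, 339.7 and 347 CPM under LPS and 198, 317 and 317 CPM under LPS with torin1. In each case LPS lay above control without overlap, with log2 fold changes of 1.37 (SE 0.26, edgeR adjusted p = 0.00219), 1.24 (SE 0.22, edgeR adjusted p = 0.00157) and 1.23 (SE 0.22, edgeR adjusted p = 0.00155). The largest falls were those of Arrb1, Hip1 and Rilp. The arrestin Arrb1 was at 218, 199 and 229.8 CPM in controls, 40.6, 60.7 and 79.5 CPM under LPS and 34.3, 40.4 and 48.9 CPM under LPS with torin1. Hip1, a relative of Hip1r, was at 53.5, 44.7 and 52.6 CPM in controls, 9.14, 19.7 and 18.7 CPM under LPS and 23.9, 38.6 and 36.9 CPM under LPS with torin1. Rilp, which joins Rab7 to HOPS and to dynein, was at 1.14, 1.38 and 1.62 CPM in controls, 0.553, 0.655 and 0.473 CPM under LPS and 0.898, 1.04 and 1.14 CPM under LPS with torin1. LPS lay below control without overlap for all of them, with log2 fold changes of −1.84 (SE 0.23, edgeR adjusted p = 0.000207), −1.66 (SE 0.29, edgeR adjusted p = 0.00146) and −1.30 (SE 0.29, edgeR adjusted p = 0.00647). The paralogs Hip1 and Hip1r thus moved in opposite directions with LPS, and with torin1 both were called higher, at 1.09 and 0.83 in polysome-associated mRNA.

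The stretch of 250 bases before each transcription start was read from RefSeq's promoters of build GRCm38.p6, which held 51 of the 67 members and 8568 of the tested genes. The E-box CACGTG, the longer palindrome TCACGTGA at the centre of the motif found at many lysosomal genes (each match of which holds the shorter one), and a form of the NF-kB motif were searched on both strands. CACGTG was found before 7 members (13.7%) and before 10.2% of the tested genes, TCACGTGA before 4 members (7.84%) and 1.83%, and the NF-kB motif before 0 members and 1.88%. The 4 members with TCACGTGA were Igf2r, Vps16, Vps26a and Vps33a, and Ap1s2, Ap2m1 and Ap5z1 held the shorter motif alone. HOPS and CORVET had 2 of 5 genes with TCACGTGA, retromer 1 of 3, and the adaptor subunits 0 of 24. A match describes the letters only. Vps16 and Vps33a, which hold it, were called with torin1 in neither RNA type. The stretches around the motif that touch no annotated exon are shown because the calls of these members differ; they run 5′ to 3′ on the strand of the gene, with the motif in capitals.
Igf2r, chr17:12769707-12769815, minus strand: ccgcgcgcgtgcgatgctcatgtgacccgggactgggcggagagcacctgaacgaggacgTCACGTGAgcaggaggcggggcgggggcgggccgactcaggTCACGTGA
Vps26a, chr10:62486922-62487048, minus strand: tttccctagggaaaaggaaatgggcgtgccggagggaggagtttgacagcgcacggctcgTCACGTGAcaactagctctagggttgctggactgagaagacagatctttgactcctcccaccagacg
Ap5z1, chr5:142463832-142463930, plus strand: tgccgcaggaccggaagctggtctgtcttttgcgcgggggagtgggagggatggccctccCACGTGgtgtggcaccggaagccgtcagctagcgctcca
Ap1s2, chrX:163908842-163908967, plus strand: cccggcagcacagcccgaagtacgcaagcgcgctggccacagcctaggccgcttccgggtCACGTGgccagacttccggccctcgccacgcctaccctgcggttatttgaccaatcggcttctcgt
Ap2m1, chr16:20535246-20535371, plus strand: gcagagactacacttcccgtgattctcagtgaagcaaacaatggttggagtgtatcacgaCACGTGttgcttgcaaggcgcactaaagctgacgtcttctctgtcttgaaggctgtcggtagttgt
Of these 5, Ap5z1, Ap1s2 and Vps26a were called higher with torin1 in both RNA types, at 1.10, 0.28 and 0.25 in total mRNA. In both RNA types 20 of the 67 members were, and 27.3% and 20.3% of all genes were in total and polysome-associated mRNA. Igf2r and Ap2m1 were called in neither, at 0.085 and −0.13. The replicate block called Ap2m1 lower in polysome-associated mRNA, with an adjusted p of 0.164 in edgeR. Whether the motifs go with these calls was not tested.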

How the data were processed

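The authors deposited raw counts per gene for 18 libraries: per the paper, stranded rRNA-depleted libraries, the nextflow RNAseq pipeline 1.3, Hisat2 to GRCm38 and featureCounts, with protein-coding genes without a count of 0 kept. From the deposited counts, R 4.3.3 with edgeR 4.0.16 computed CPM (TMM), RPKM and quasi-likelihood tests (Benjamini-Hochberg, FDR 0.25), with 9 libraries per RNA type in a model and all 18 for translation efficiency; DESeq2 1.42.0 and limma 3.58.1 served for alternatives; anota2seq, the authors' tool for translation efficiency, was not installed. Scripts were tested on simulated data. Members and lists were chosen with earlier results of these data known. Named members were the largest called changes moving the same way in all 3 experiments, up to 5 per direction for LPS in polysome-associated mRNA and 3 elsewhere, the smallest p-values for translation efficiency, and the receptors, clathrin chains, GGA genes, HOPS subunits and retromer; Vps13d and the further members named with a log2 value alone or a call alone were chosen after their values were seen. Same-numbered libraries deviated together (correlation over 0.1 in every pair) in total mRNA, in polysome-associated mRNA of LPS with torin1 and LPS, and within lysates, which is taken as pairing by experiment; polysome-associated libraries of LPS and control cells come from lysates paired in this way but did not all deviate together. GEO's labels give the replicate number.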

Additional observations from a re-analysis of the deposited data

How the results depend on the processing

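Of the counts of members called, 54 values under other settings stayed within 1.5 times the reported count, including every count of 0 for translation efficiency and every count for polysome-associated versus total mRNA. Another 2 values were larger and 8 were smaller than that. A count of 0 that stays 0 says little about how steady the calls are. At an FDR of 0.05, edgeR called 22 members with LPS in total and 13 in polysome-associated mRNA, and 20 and 8 with torin1, because the threshold is stricter. The share of all genes at that threshold is not given here, so these counts do not compare the members with all genes. Leaving out 1 experiment gave 27 to 40 members for LPS in total mRNA, 13 to 41 in polysome-associated mRNA, and 7 to 32 for torin1 in polysome-associated mRNA; of all genes, 55.5% to 62.8%, 34.7% to 64.5% and 10.6% to 46.1% were called in the same fits. Gga1 reversed with LPS in polysome-associated mRNA without experiment 2, at −0.28, and was at 0.38 without experiment 1; the cause was not tested. For LPS versus control in polysome-associated mRNA, same-numbered libraries correlated by 0.030, −0.074 and 0.477, although the total mRNA of the same lysates deviated together; the replicate block gave 35 members in place of 23, among them 2 HOPS and CORVET genes in place of 0, and both are given. In the other comparisons the block gave 44, 41 and 34 members for LPS in total mRNA and torin1 in total and polysome-associated mRNA and 54 for the polysome ratio. Of all genes the block called 73.1%, 64%, 49.7% and 80% in the same order, beside 65.7%, 61.2%, 50.7% and 80.6% of the members. It added Ap3s2, Clta and Vps36, then Ap3m2, Clta, Vps4b and Vps13a, then Ap2m1, Ap2s1, Ap4b1, Vps37c, Vps4b and Vps51, and for the polysome ratio Ap3d1, Vps41 and Vps8, and changed no other call of a member in these comparisons. With 3 experiments a group, small changes can be missed, and members with few counts, such as Ap1m2 and Vps25, are measured least precisely.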
